A study of Mus musculus with 2 samples.

Results

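The enzymes of glycolysis, gluconeogenesis, fructose breakdown and the tricarboxylic acid (TCA) cycle were followed in mouse kidney with and without Iah1, an esterase gene named after a yeast enzyme that acts on isoamyl acetate. The set is a list of 50 enzyme genes, and a gene was measured here if a probe set carried its symbol and no other. That held for 45 of the 50 genes, out of 22180 genes measured in all. Values are log2 values after RMA (robust multi-array average), given for the Iah1-WT pool first and the Iah1-KO pool second, and a difference is always KO minus WT. A floor of log2 6 in the higher of the 2 arrays was used to set dim genes apart. It was reached by 38 of the 45 enzyme genes, 36 of them in both pools and 2 (Aldoc and Fbp2) in the KO pool alone, and by 7671 genes in all.

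All animals were males, given ordinary chow up to the age of 6 weeks and then a high-fat diet for 12 weeks, with 1 mouse per cage. The kidneys were taken in the early afternoon, 4 hours after food was withdrawn. The 2 groups were Iah1-WT and Iah1-KO, a knockout in the whole body. Each was hybridised to 1 array as a pool of RNA from 3 mice, so mouse-to-mouse spread is unknown, the design has no replicates and no test between genotypes, and each value below stands for 1 pool. Neither the strain nor the deleted stretch of Iah1 is stated in the labels used. The Iah1 probe set read 9.09 (WT) and 3.60 (KO), the second being under that array's median of 4.03 and so not shown to be above background. Over the 7671 genes the median difference was 0.01, the middle 95% lay between -0.30 and 0.35, and the robust SD (scaled median absolute deviation) was 0.13.

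Glycolysis splits glucose into pyruvate and gluconeogenesis runs the same road backwards, with separate enzymes at the irreversible steps. The kidney is, beside the liver, the organ that releases newly made glucose into blood. It does so in the proximal tubule, from lactate and glutamine, while segments further down the nephron rely more on glycolysis. The TCA cycle burns acetyl-CoA in the mitochondria of the energy-hungry tubule cells and supplies the oxaloacetate from which gluconeogenesis starts. Many steps have several isozymes, encoded by separate genes that are used in different tissues.

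Most enzyme genes had nearly the same value in both pools. Of the 38 at or above the floor, 31 (81.6%) differed by at most 0.1, against 54.2% of all genes at or above the floor. Brighter genes scatter less on these arrays, and 24 of the 38 had a mean of at least log2 9. Among those 24, 23 (95.8%) were within 0.1, against 70.1% of the 1030 genes of that brightness. The median difference over the 38 was 0.01, as over all genes, and the range was -0.14 (Suclg1) to 0.52 (Aldoc). In the Iah1-KO pool 21 were higher and 17 lower, a share of 55.3% higher against 52.4% of all genes.

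A difference of at least 1.2-fold (0.26 on the log2 scale) was found for 3 of the 38 genes, all higher in the KO pool: Aldoc, Fbp2 and Pck2. That is 7.89% of them, where 5.36% of all genes were at least 1.2-fold higher. Aldoc and Fbp2 passed the floor through their KO value alone, so the floor favours their direction. Pck2, the remaining gene, reached the floor in both pools. None of the 38 was at least 1.2-fold lower, where 3.77% of all genes were. At 1.5-fold the count was 0, with 0.43% of all genes past it in either direction. Measured against the spread of the 500 genes nearest in mean value (the local robust SD), 2 of the 38 (5.26%), Aldoc and Fbp2, lay beyond 2 local robust SDs, as did 6.64% of all genes. Neither reached the floor in the WT pool, so the floor favours their direction here too. With so few genes, these shares are near those of all genes. Of the 3, Pck2 came out just under 1.2-fold, at 0.261 against a threshold of 0.263, when the trend of the differences with brightness was subtracted.

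**Figure D1:**
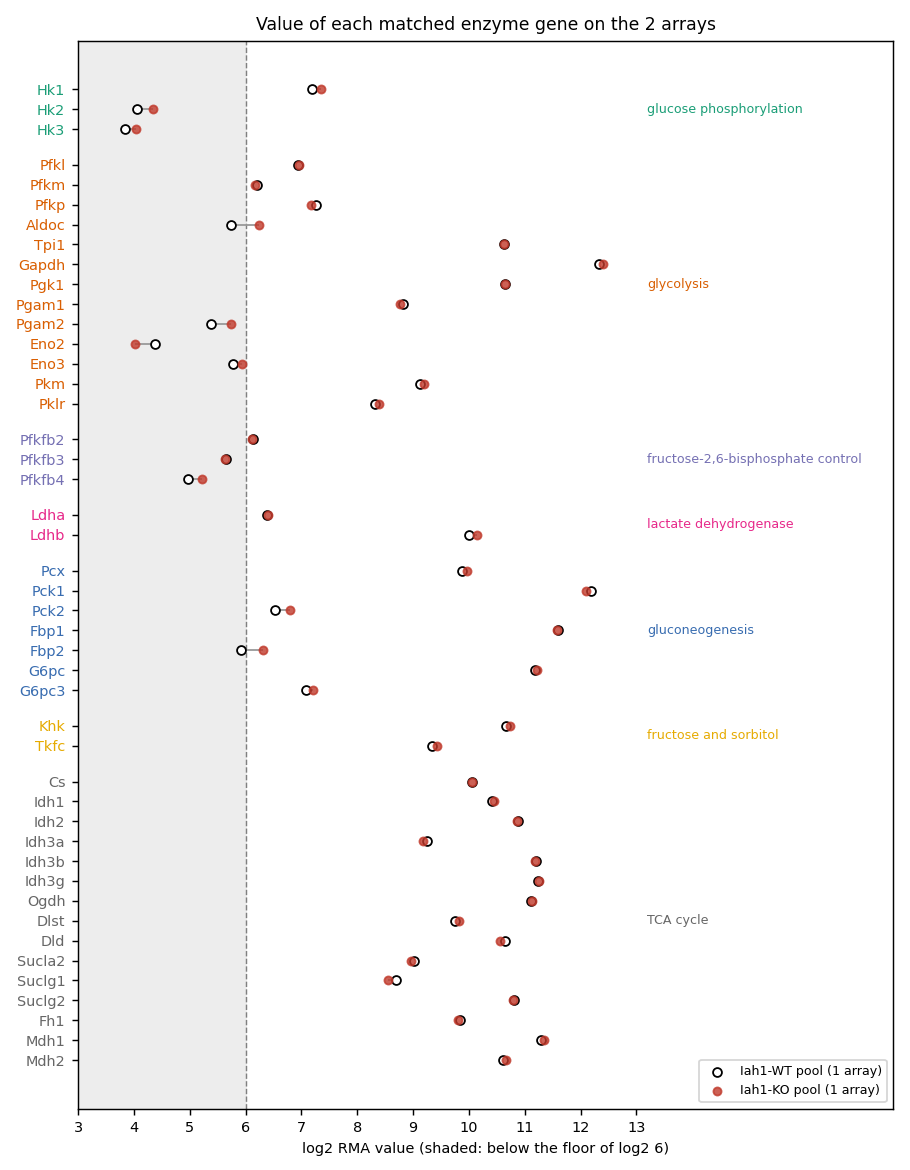
Log2 RMA value (horizontal axis) of each of the 45 measured enzyme genes, grouped by pathway, in the Iah1-WT pool (open circles) and the Iah1-KO pool (red circles), 1 array each; a grey line joins the pair and shading marks values below the floor of log2 6. Most pairs overlap, and the visible gaps are those of dim genes such as Aldoc (5.73 and 6.25) and Fbp2 (5.92 and 6.31).

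Hexokinases carry out the first step, glucose phosphorylation, and only Hk1, the form found in nearly every cell, was at or above the floor. Hk1 read 7.19 (WT) and 7.35 (KO), a difference of 0.16 or 1.24 local robust SDs. A further probe set, shared with the antisense gene Hk1os, read 4.70 and 4.77. Hk2, the insulin-responsive hexokinase of muscle and fat, was below the floor at 4.06 and 4.34. Hk3, the form of myeloid cells, was below it too, at 3.84 and 4.04. All of the hexokinase genes were therefore somewhat higher in the KO pool, but Hk2 and Hk3 lay near the array medians of 4.05 and 4.03 and are not shown to be above background. Myeloid markers, which could accompany Hk3, had summed linear signals of 596 (WT) and 666 (KO) over 10 genes, 4 of them at or above the floor and 5 higher in the KO pool; their part in the Hk3 value was not tested.

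Phosphofructokinase-1, which commits the sugar to glycolysis, is built from liver-type (Pfkl), muscle-type (Pfkm) and platelet-type (Pfkp) subunits, and all of these were at or above the floor. Pfkl read 6.94 (WT) and 6.96 (KO). Pfkm read 6.20 and 6.17, and Pfkp read 7.25 and 7.18. Their differences of 0.02, -0.03 and -0.08 stayed within 1 local robust SD, so that no shift between subunit types was detectable. The enzyme's strongest activator is made and removed by a small family of bifunctional kinases. Of these only Pfkfb2, the heart-type form, reached the floor, at 6.13 and 6.11. Pfkfb3, an inducible form, was just below it at 5.64 and 5.63, and Pfkfb4 was at 4.97 and 5.22. Gpi1, the isomerase between hexokinase and phosphofructokinase, and Pfkfb1 were not analysed here.

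Aldolase splits the doubly phosphorylated fructose. Aldoc, the form typical of brain, had the largest difference of all the enzyme genes, at 5.73 (WT) and 6.25 (KO). The KO value was higher by 0.52, or 1.43-fold, which is 2.09 local robust SDs. Aldoc passed the floor through its KO value alone, and 15.4% of its 500 neighbours in mean value were also at least 1.2-fold higher. Nerve markers, which could accompany a brain-type isozyme, were all below the floor (0 of 6 measured genes at or above it), with a highest value of 4.88. The summed linear signal of that list was 86.9 (WT) and 90.8 (KO), and the part of other cell types in the Aldoc value was not tested. Aldoa, the form of muscle and most other cells, shares its only probe set here with the retrogene Aldoart1; that probe set read 5.23 and 5.48, below the floor.

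The steps after aldolase, which act on triose phosphates, were almost identical in the pools. Tpi1, triose phosphate isomerase, read 10.63 (WT) and 10.62 (KO). Pgk1, phosphoglycerate kinase, read 10.65 in both, with a difference of -0.0007, the nearest to 0 of the 38. Gapdh, the dehydrogenase between them and a common reference gene, read 12.33 and 12.40. Its symbol stands on 11 probe sets, 3 with that symbol alone and 8 with another symbol as well, and 10 of the 11 were at or above the floor. Their differences ran from -0.02 to 0.09, with a median of 0.05, and 9 of the 10 were above 0. They share sequence, and a pair of them (17427183 and 17478474) hold the same values of 12.94 and 12.94, so they are not separate measurements of the gene. All of the glycolytic steps in this stretch thus differed by at most 0.1.

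Pgam1, the widely expressed phosphoglycerate mutase, read 8.81 (WT) and 8.77 (KO), a difference of -0.05. Its dimmer probe set read 6.94 and 6.73, a difference of -0.21, in the same direction. Pgam2, the muscle form, was below the floor at 5.38 and 5.73. The enolases measured were both below it: Eno2, the neuronal form, at 4.38 and 4.01, and Eno3, the muscle form, at 5.78 and 5.94. Eno1, the enolase of most tissues, was not analysed here. Eno3 was the nearest of all members below the floor, and Aldoc (6.25), Fbp2 (6.31) and Pfkfb2 (6.13) were among the nearest above it by their higher value.

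Pyruvate kinase closes the pathway. Pkm, whose transcript is spliced into a muscle and a widely used form that this probe set does not tell apart, read 9.13 (WT) and 9.20 (KO). Pklr, the form of liver, red blood cells and proximal tubule, read 8.32 and 8.39. The differences of 0.06 and 0.07 were only 0.01 apart. Lactate dehydrogenase links pyruvate to lactate, and its subunits stood further apart. Ldha, the subunit of glycolytic tissue, read 6.38 and 6.41, whereas Ldhb, the heart-type subunit, read 10.01 and 10.15. Ldhb was thus higher by 0.14, or 1.38 local robust SDs, with a gap of 0.12 between the subunits' differences.

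**Figure D2:**
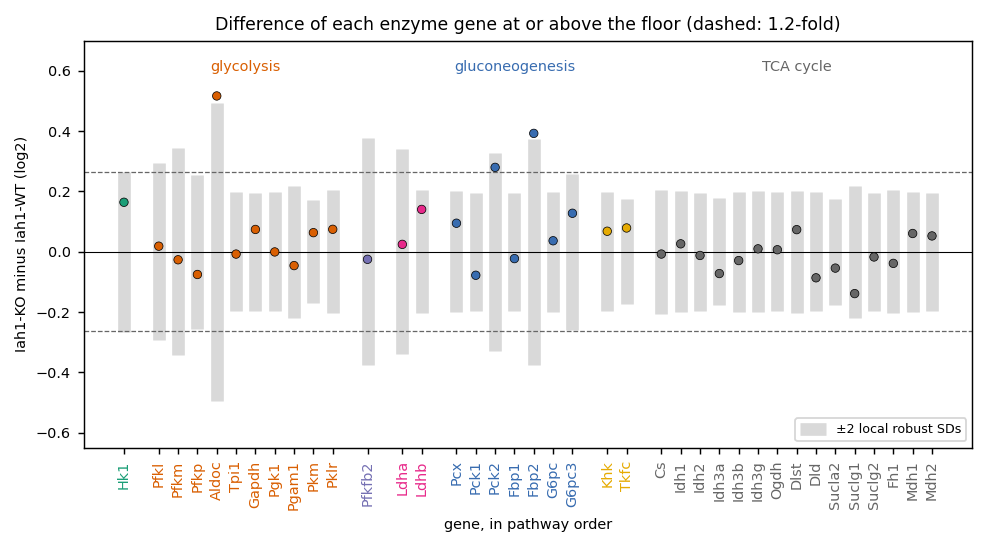
Difference in log2 value, Iah1-KO minus Iah1-WT (vertical axis), of the 38 enzyme genes at or above the floor in pathway order; grey bars span 2 local robust SDs either side of 0 and dashed lines mark 1.2-fold. Aldoc (0.52) and Fbp2 (0.39) lie just outside their bars, Pck2 (0.28) passes 1.2-fold inside its bar, and all TCA cycle genes lie between -0.14 and 0.07.

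Gluconeogenesis held 2 of the 3 genes past 1.2-fold, Pck2 and Fbp2, which is 28.6% of its 7 genes against 5.36% of all genes. Both are dim, with a mean between log2 6 and 7, where 8.35% of all genes were at least 1.2-fold higher. Fbp2 reached the floor in the KO pool alone. All 7 gluconeogenesis genes were at or above the floor, 5 were higher and 2 lower in the KO pool. Their median difference was 0.09, against 0.01 over all genes. With a floor of log2 7 the median was 0.04 over the 5 genes left. The main kidney forms of the enzymes differed by at most 0.1, and the larger differences were those of their isozymes. Pcx, pyruvate carboxylase, which makes oxaloacetate in mitochondria, read 9.88 (WT) and 9.97 (KO). Pck1, the cytosolic phosphoenolpyruvate (PEP) carboxykinase that turns oxaloacetate into PEP and is strongly hormone-regulated, read 12.19 and 12.11, a difference of -0.08. Pck2, its mitochondrial isozyme, read 6.52 and 6.80. The KO value of Pck2 was higher by 0.28, or 1.21-fold, and by 1.71 local robust SDs.

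Fructose-bisphosphatase, which undoes the phosphofructokinase step, had the widest gap between isozymes. Fbp1, the form of liver and kidney, read 11.60 (WT) and 11.58 (KO). Fbp2, the muscle form, read 5.92 and 6.31, so that it was higher by 0.39, or 1.31-fold, and by 2.10 local robust SDs. Fbp2 passed the floor through its KO value only, and 11% of its 500 neighbours in mean value were at least 1.2-fold higher. For glucose-6-phosphatase, which releases free glucose, G6pc, the catalytic subunit of liver and kidney, read 11.18 and 11.22. G6pc3, the subunit found in all tissues, read 7.07 and 7.20. The gap between the differences of the isozymes was 0.36 for the PEP carboxykinases, 0.42 for the fructose-bisphosphatases, which the floor favours because Fbp2 passed it in the pool where it was high, and 0.09 for the glucose-6-phosphatases, under the median of 0.11 between probe sets of 1 gene. Dim genes differ more in general: the robust SD over all genes was 0.17 at a mean between log2 6 and 7, and 0.09 between log2 9 and 11.

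Skeletal muscle markers, a measure of tissue that could bring in Fbp2, Pgam2 and Eno3, were below the floor in both pools. None of the 13 measured genes reached it, the highest value was 5.08 (Tnnc2), and the summed linear signal of the list was 216 (WT) and 228 (KO). Of the 13, 9 were higher in the KO pool, and the defining markers Ckm and Acta1 read 3.96 and 4.03, and 4.52 and 4.75. Atp2a1 (4.08 and 3.75), Tnni2, Myh2 and Mylpf were lower in the KO pool. The part of muscle in the Fbp2 value was not tested.

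The upstream sequences of the PEP carboxykinase and fructose-bisphosphatase pairs are shown because these isozymes had the widest gaps between their differences. Each is the stretch of 250 bases before the gene's annotated start in RefSeq (GRCm38.p6), 5′ to 3′ on the gene's strand. Pck1 lies at chr2:173152823-173153072 (+), Pck2 at chr14:55540016-55540265 (+), Fbp1 at chr13:62888283-62888532 (-) and Fbp2 at chr13:62858401-62858650 (-). Capitals mark matches, on either strand, to the hypoxia response core ACGTG, the core ACGTCA of the cyclic AMP response element, or TGATGNAA, the element read by ATF4 with C/EBP proteins.
Pck1: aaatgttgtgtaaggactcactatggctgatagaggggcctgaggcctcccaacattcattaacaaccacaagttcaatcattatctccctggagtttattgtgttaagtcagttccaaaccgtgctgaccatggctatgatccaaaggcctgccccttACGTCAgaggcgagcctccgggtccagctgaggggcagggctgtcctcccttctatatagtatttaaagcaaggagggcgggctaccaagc
Pck2: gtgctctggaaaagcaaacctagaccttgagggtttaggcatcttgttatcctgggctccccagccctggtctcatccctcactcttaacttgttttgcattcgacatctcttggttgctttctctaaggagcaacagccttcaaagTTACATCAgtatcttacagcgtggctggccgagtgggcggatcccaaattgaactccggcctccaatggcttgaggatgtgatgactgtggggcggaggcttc
Fbp1: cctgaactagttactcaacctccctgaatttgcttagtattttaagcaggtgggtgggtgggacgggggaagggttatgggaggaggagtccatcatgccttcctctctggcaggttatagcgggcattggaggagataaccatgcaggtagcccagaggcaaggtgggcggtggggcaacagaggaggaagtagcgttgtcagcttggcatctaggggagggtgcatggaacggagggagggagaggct
Fbp2: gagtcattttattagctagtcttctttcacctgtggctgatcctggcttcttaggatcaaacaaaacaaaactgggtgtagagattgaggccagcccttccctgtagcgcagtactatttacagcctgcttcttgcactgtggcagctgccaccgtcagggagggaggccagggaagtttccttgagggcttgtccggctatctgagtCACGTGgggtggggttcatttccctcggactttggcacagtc

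Within these windows Pck1 held the cyclic AMP core, from base 91 to base 86 before its start. The letters of that core were settled after the sequences were seen, so its match in Pck1 is no test. Pck2 held the ATF4-type element on the reverse strand, from base 103 to base 96. Fbp2 held a hypoxia core on both strands, as the palindrome CACGTG that ends at base 37 before its start, which is also the letters of an E-box. Only the letters ACGTG were searched as the hypoxia core, and other spellings of it were not marked. Fbp1 had no match to the 3 motifs in its window. Among the 49 listed genes with a promoter in the table, 17 (34.7%) had the hypoxia core, 7 (14.3%) the cyclic AMP core and 2 (4.08%) the ATF4-type element. Over all 27025 genes of the table these shares were 18.5%, 7.29% and 3.91%, and over the 6135 of them at or above the floor they were 26.6%, 12.2% and 2.20%. The 49 listed genes include some below the floor or not measured, so the 6135 are not a like set. A match of letters is a description of the window and does not show a bound site.

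Fructose enters the same pool of triose phosphates through its own enzymes. Khk, ketohexokinase, which phosphorylates fructose in the proximal tubule, read 10.67 (WT) and 10.74 (KO). Tkfc, the triokinase that acts on glyceraldehyde further along, read 9.34 and 9.42. The differences of 0.07 and 0.08 were alike in size and under 1 local robust SD each. Sord, which makes fructose from sorbitol, was not analysed here.

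The TCA cycle genes differed little between the pools. All 15 were at or above the floor, 14 of the 15 (93.3%) were within 0.1 and none passed 1.2-fold or 2 local robust SDs. Most of them are bright, and among all genes with a mean of at least log2 9 the share within 0.1 was 70.1%; of those between log2 9 and 11, 1.11% were at least 1.2-fold higher and 1.78% lower, so a count of 0 in 15 is near the background. The median difference was -0.01, with 6 genes higher and 9 lower in the KO pool, and the robust SD over the 15 was 0.06. Cs, citrate synthase, the entry of the cycle, read 10.06 (WT) and 10.05 (KO). The NAD-dependent isocitrate dehydrogenase of the cycle has an alpha subunit, Idh3a, at 9.25 and 9.18, a beta subunit, Idh3b, at 11.21 and 11.18, and a gamma subunit, Idh3g, at 11.24 and 11.25. Their differences of -0.07, -0.03 and 0.01 span 0.08. The NADP-dependent isozymes, which supply reducing power, differed as little, with cytosolic Idh1 at 10.42 and 10.44 and mitochondrial Idh2 at 10.88 and 10.87.

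The oxoglutarate dehydrogenase complex follows in the cycle. Ogdh, its first component, read 11.12 (WT) and 11.13 (KO), and Dlst, the core component, read 9.75 and 9.82. Dld, the third component, which pyruvate dehydrogenase uses as well, read 10.65 and 10.56. From Dld (-0.09) to Dlst (0.07) the differences spanned 0.16. Succinyl-CoA synthetase followed, with the shared alpha subunit Suclg1 at 8.69 and 8.56, the ATP-forming beta subunit Sucla2 at 9.03 and 8.97 and the GTP-forming beta subunit Suclg2 at 10.80 and 10.78. Suclg1 was the lowest of all 38 genes at -0.14, or -1.27 local robust SDs, and all of the subunits were below 0. A dim additional probe set of Suclg2 read 5.25 and 5.47, in the opposite direction, and the mean over both probe sets of Suclg2 was 0.11, which widens the gap within the synthetase from 0.12 to 0.24. Fh1, fumarase, read 9.84 and 9.80. The malate dehydrogenases, cytosolic Mdh1 at 11.29 and 11.35 and mitochondrial Mdh2 at 10.61 and 10.67, were both slightly higher, with differences 0.01 apart.

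**Figure D3:**
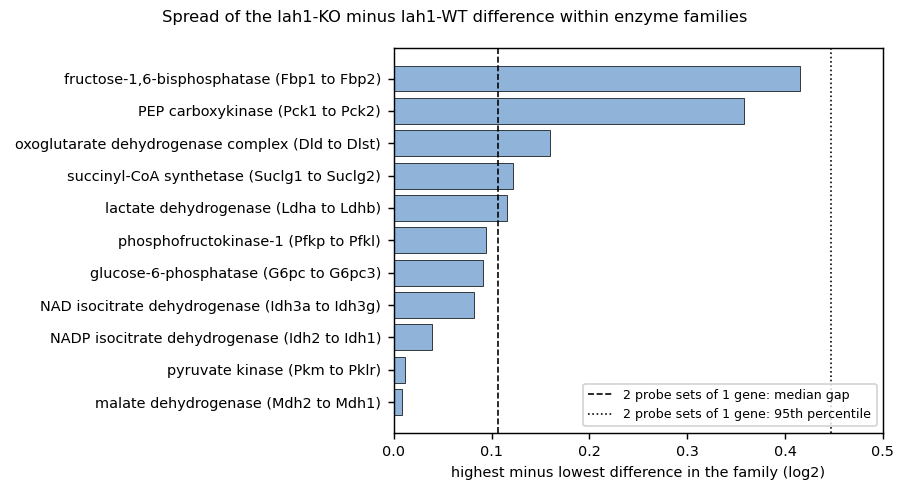
Gap between the highest and the lowest log2 difference (Iah1-KO minus Iah1-WT) among members at or above the floor, for 11 isozyme or subunit families; the lines give the gap between the 2 brightest probe sets of 1 gene over 114 genes, as median (0.11, dashed) and 95th percentile (0.45, dotted). The fructose-bisphosphatases (0.42) and PEP carboxykinases (0.36) have the widest gaps and stay under the dotted line.

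Set side by side, the 11 families with more than 1 member at or above the floor had gaps from 0.01 (malate dehydrogenase) to 0.42 (fructose-bisphosphatase), with a median of 0.09. As a yardstick of measurement, the differences of the 2 brightest probe sets of the same gene lay a median of 0.11 apart over 114 genes, with a 95th percentile of 0.45. No family exceeded that upper value. The phosphofructokinase subunits (0.09), the pyruvate kinases (0.01) and both kinds of isocitrate dehydrogenase (0.04 and 0.08) stayed under the median of it. Lactate dehydrogenase (0.12), succinyl-CoA synthetase (0.12) and the oxoglutarate dehydrogenase complex (0.16) lay above that median, as did the PEP carboxykinases and fructose-bisphosphatases. The yardstick spans 2 probe sets and is not matched for brightness, while some families span 3 genes.

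**Figure D4:**
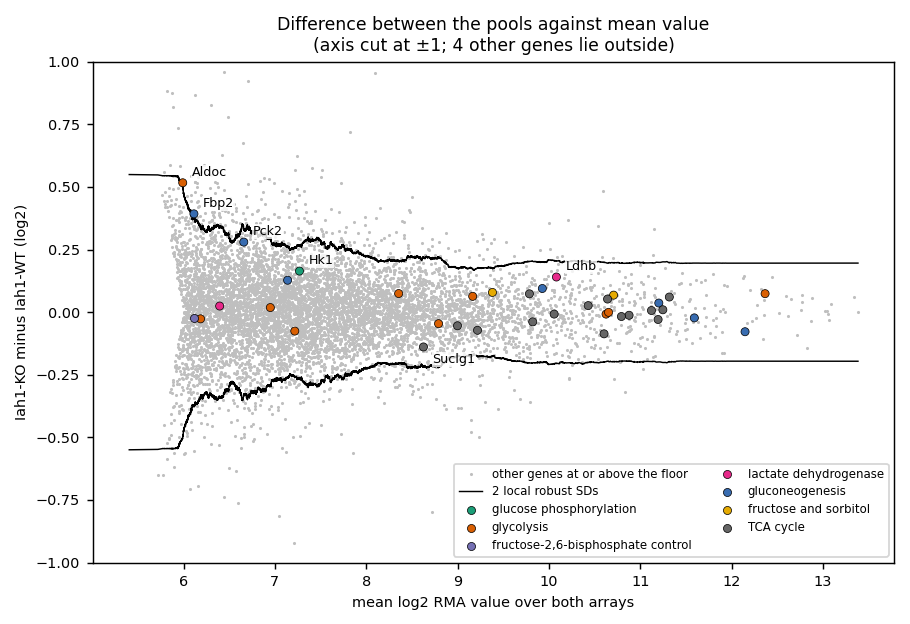
Difference between the pools (vertical axis, log2) against the mean log2 RMA value over both arrays for genes at or above the floor; grey points are other genes, coloured points the 38 enzyme genes by pathway group, and black lines 2 local robust SDs. The spread narrows with brightness, and the named points furthest from 0, Aldoc, Fbp2 and Pck2, lie at the dim end.

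Further enzymes of the same pathways were examined from a separate list. Of 26 such genes 21 were measured and 13 reached the floor, with differences from -0.28 to 0.15 and a median of 0.01. Of the 13, 0 were at least 1.2-fold higher and 1 lower, where 5.36% and 3.77% of all genes were. The lower gene was Bpgm, the mutase of the red-cell side branch of glycolysis, at 6.98 (WT) and 6.69 (KO), a difference of -0.28. The next were Sdhd, a membrane anchor of succinate dehydrogenase, at 0.15, Galm, the mutarotase of glucose, at 0.15, and Mpc1, of the mitochondrial pyruvate carrier, at 0.13. Bpgm also stands in the red blood cell list, where 4 of 10 genes were measured and 3 reached the floor, with Slc25a37 at -0.08 and Slc4a1, which intercalated cells share, at 0.18; the part of blood in the Bpgm value was not tested.

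Genes that feed renal gluconeogenesis from glutamine and lactate had a median of -0.01 over the 11 of 13 at or above the floor, with 0 past 1.2-fold. The furthest were Slc25a10, the mitochondrial dicarboxylate carrier, at -0.22, and Slc38a3, the glutamine transporter of the basolateral membrane, at -0.21. Slc5a12, a lactate transporter of the brush border, differed by -0.14 and Slc16a1 by 0.08. Transcription regulators of the pathways had a median of 0.04 over 12 of 15 genes, again with 0 past 1.2-fold: Creb1 differed by 0.17, Epas1 by 0.17, Hnf4a by 0.16 and Foxo1 by -0.12. Hypoxia-responsive genes, among which glycolytic enzymes are usually counted, had a median of 0.01 over 9 of 12 genes and 0 past 1.2-fold, with Slc2a1 at 0.10, Ndrg1 at 0.09, Egln1 at -0.07 and Egln3 at -0.06. In lists this short, 0 past 1.2-fold is near the background, as 5.36% of all genes were at least 1.2-fold higher and 3.77% lower.

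The cell make-up of the pools was read from marker lists. In these bulk samples fewer cells of a type and less RNA per cell cannot be told apart. Proximal tubule markers were present throughout, with 17 of 18 genes measured and all 17 bright enough, a median difference of 0.02, and summed linear signals of 53029 and 53072 in the WT and KO pools. Slc22a8 (0.23), Gatm (-0.20), Keg1 (-0.16) and Acsm2 (0.15) were the furthest. Markers of the thick ascending limb and distal tubule were mixed, with 3 higher and 6 lower in the KO pool among the 9 of 11 genes at or above the floor. Their median was -0.09, with summed signals of 14141 and 13712. The furthest were Cldn10 (-0.24), Kcnj1 (-0.16), Calb1 (-0.14) and Slc12a1 (-0.12). Collecting duct markers had a median of -0.02 over 11 genes, led by Atp6v1g3 (-0.81) and Aqp2 (0.49), followed by Slc4a1 (0.18) and Foxi1 (-0.18), with summed signals of 2286 and 2240.

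Of the cell types with few transcripts in whole kidney, the endothelial list had 9 of 10 genes above 0, where 52.4% of all genes were. It had a median of 0.12 and summed signals of 2927 and 3130, led by Cdh5 (0.24), Ehd3 (0.21), Ptprb (0.17) and Flt1 (0.16). Myeloid markers were mixed: the 4 of 10 at or above the floor, Lyz2 (0.63), Cx3cr1 (0.41), Fcer1g (0.36) and Csf1r (0.11), were above 0, Cx3cr1 having passed the floor through its KO value only, while over all 10 there were 5 higher and 5 lower and summed signals of 596 and 666. Adgre1, a defining macrophage marker below the floor, read 5.10 and 4.37. Adipocyte markers had only Fabp4 (-0.07) at or above the floor out of 8 measured, and Adipoq read 3.57 and 3.44. Of those 8, 3 were higher in the KO pool, and the summed signals were 471 and 440. The part of these cell types in the enzyme genes' differences was not tested.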

How the data were processed

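Kidney RNA of 2 pools of 3 mice each was measured on 2 whole-transcript arrays from 100 ng of total RNA, per the labels' protocols. Per the submitters' processing notes, the authors used RMA and Affymetrix Expression Console 1.3.0; the deposited values are log2 values per probe set. RMA sets both arrays to a common distribution, so a shift of most genes one way would not be seen, and dim differences are compressed. A genome build for the probes is not stated. The platform annotation gives 1 symbol to 23521 of 41345 probe sets, several to 1814 and none to 16010. For each gene the brightest probe set with 1 symbol was used, with no further normalization. The members, lists and motifs were chosen with earlier results of these data known. The text names every member and the up to 4 genes of each further list at or above the floor with the largest difference in size, plus a few defining markers below it, chosen after their values were seen. The local robust SD (1.4826 times the median absolute deviation) covers the 500 genes nearest in mean value among genes at or above the floor; near the floor, genes that pass through 1 array widen it. Python 3.11.15, numpy 2.4.6, pandas 2.3.3, statsmodels 0.14.6 and matplotlib 3.10.9 were used, and the procedure was tested on simulated data. Promoter sequences came from RefSeq (GRCm38.p6), with 49 of 50 genes matched by symbol; the letters of the cyclic AMP core were settled after the sequences were seen. Alternatives were other floors, thresholds, scalings and probe set rules. With 1 array per genotype, no p-value or replicate error exists; precision is limited by that number.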

Additional observations from a re-analysis of the deposited data

How the results depend on the processing

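The count of enzyme genes at least 1.2-fold higher in the Iah1-KO pool, 3 of 38, depended on the floor and the threshold. With a loess correction it was 2 of 38, where 4.52% of all genes passed. At a threshold of 2 local robust SDs it was also 2 of 38, where 3.78% of all genes were higher by that much. It was 0 of 31 with a floor of log2 7 (3.10% of all genes) and 5 of 45 with no floor (10.3% of all genes). At a threshold of 1.5-fold it was 0 (0.22% of all genes). The count of lower genes, 0 of 38, was 1 of 45 with no floor, where 11.6% of all genes passed. The median difference of 0.014 became 0.043 as a mean. The other 138 alternative values of these counts, of the group medians and of the family gaps moved by at most 1.5 times for a count, less than the robust SD of 0.13 for a gap, or less than the error of a median that this SD gives. Of the alternative values of single members 75 moved by less than the local robust SD, and 1 by more: Suclg2 turned from -0.02 to 0.11 as a mean over its probe sets. Why these values moved was not tested. Leaving out a replicate is not possible with 1 array per genotype, and signal over background was not available.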

Other observations

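Side branches of sugar metabolism were examined as well. Glycogen genes were lower in the Iah1-KO pool for 7 of the 10 at or above the floor (15 listed, 13 measured). Their median difference was -0.05, and of all genes at or above the floor 3653 of 7671 were lower. Of the 10, 0 were past 1.2-fold, which is near the background: 5.36% of all genes were at least 1.2-fold higher and 3.77% lower. Gys2, the liver-type glycogen synthase, read 7.36 (WT) and 7.16 (KO), a difference of -0.20. Pgm2, a phosphoglucomutase, differed by -0.19, Pygb, the brain-type phosphorylase, by -0.16, and Gyg, the glycogenin that primes the granule, by -0.15.

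Pentose phosphate genes had a median of -0.01 over 5 of 8 genes, with H6pd, the hexose-6-phosphate dehydrogenase of the endoplasmic reticulum, at 0.17 and Pgls at -0.16, followed by Pgd at 0.08 and Taldo1 at -0.03. Glycerol phosphate genes had a median of 0.01 over 4 of 5 genes, with Pgp at -0.11, Gpd2 at 0.06, Gpd1 at 0.03 and Gpd1l at -0.01.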
